A study of Mus musculus with 2 samples.

Results

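The Kruppel-like factor (KLF) genes examined here are Klf2, Klf3, Klf4, Klf5, Klf6, Klf7, Klf9, Klf10, Klf11 and Klf13, 10 genes of the 21774 protein-coding genes in the RefSeq table of the mouse genome. A KMT2D peak was counted for a gene when its summit, the base of highest signal, lay inside the gene or within 50 kb of it on build mm10. By that rule 14 of the 3738 peaks in the list belonged to 6 of the 10 genes, and Klf2, Klf5, Klf7 and Klf13 had none. The regions were chosen by their presence in this peak list, and the genes were listed with those peaks known, so counts and folds are a description and carry no test.

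The peaks come from chromatin immunoprecipitation and sequencing (ChIP-seq) of KMT2D in wild-type HT22 cells, an immortalised mouse hippocampal line, labelled as a wild-type clone and harvested at 70% confluency. Chromatin pulled down with antibody to KMT2D gave 1 library, and input chromatin taken without antibody gave another. The study also describes HT22 cells with the SET domain of KMT2D deleted, which are not analysed here. The comparison rests on 1 library a group without replicates, so no difference between peaks was set against biological spread. The intervals given cover counting error of the ChIP fragments only, with the background from the input held fixed.

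KMT2D is a histone methyltransferase that marks lysine 4 of histone H3, mostly at enhancers and promoters. KLF proteins are transcription factors that bind GC-rich boxes and the related CACCC box through zinc fingers at their carboxy-terminal end. Some members, such as KLF3, recruit the corepressor CtBP. Others, such as KLF9, KLF10, KLF11 and KLF13, bind the corepressor Sin3A, and KLF2, KLF4, KLF5, KLF6 and KLF7 are mostly described as activators. Several KLF genes respond quickly to serum, hormones or growth signals. KLF7 and KLF9 are known for roles in neurite growth and in the maturation of neurons.

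In 3 of the KLF genes the KMT2D summit fell in the bases just before the annotated start, so these promoters are shown first, with 1 KLF promoter that had no summit. The RefSeq promoter table (GRCm38.p6, the same assembly as mm10) held 8 of the 10 genes, without Klf5 and Klf10. Each sequence is the 250 bases before the start, written 5′ to 3′ on the strand of the gene. Capitals mark matches on either strand to the motifs searched. These were the GC box GGGCGGG, the CACCC box CACCC, the CCAAT box CCAAT, the TATA box TATAAA, the cyclic AMP response element TGACGTCA, the AP-1 site TGANTCA, the E-box CACGTG and the CArG box of SRF.
Klf3 (chr5:64803271-64803520, plus strand, summit 179 bp before the start): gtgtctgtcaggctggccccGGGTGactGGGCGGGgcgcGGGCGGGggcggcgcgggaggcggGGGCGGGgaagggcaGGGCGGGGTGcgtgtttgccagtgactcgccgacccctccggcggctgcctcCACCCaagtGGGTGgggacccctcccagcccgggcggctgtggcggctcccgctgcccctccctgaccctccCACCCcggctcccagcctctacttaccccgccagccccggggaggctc
Klf6 (chr13:5861239-5861488, plus strand, summit 232 bp before the start): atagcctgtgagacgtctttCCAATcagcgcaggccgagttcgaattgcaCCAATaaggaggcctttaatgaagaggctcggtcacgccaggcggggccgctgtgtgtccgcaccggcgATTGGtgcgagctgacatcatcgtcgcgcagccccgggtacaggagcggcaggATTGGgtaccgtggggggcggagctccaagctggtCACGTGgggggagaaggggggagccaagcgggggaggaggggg
Klf11 (chr12:24651121-24651370, plus strand, summit 83 bp before the start): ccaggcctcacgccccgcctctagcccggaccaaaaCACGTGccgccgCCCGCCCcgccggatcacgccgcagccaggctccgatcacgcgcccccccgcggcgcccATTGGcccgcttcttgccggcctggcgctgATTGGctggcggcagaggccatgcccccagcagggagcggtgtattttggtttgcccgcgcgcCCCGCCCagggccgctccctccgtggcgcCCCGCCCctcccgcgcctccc
Klf2 (chr8:72318812-72319061, plus strand, no summit): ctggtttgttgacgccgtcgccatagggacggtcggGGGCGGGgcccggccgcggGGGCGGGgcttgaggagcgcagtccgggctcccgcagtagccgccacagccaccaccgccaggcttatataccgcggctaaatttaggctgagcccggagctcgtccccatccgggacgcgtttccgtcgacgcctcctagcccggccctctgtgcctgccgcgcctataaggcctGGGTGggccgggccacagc

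A summit fell in the table's window, from 250 bases before to 50 after the start, in 3 of the 8 KLF promoters and in 1.59% of all 21263 promoters of protein-coding genes, a difference from which nothing is read. These promoters shared a high GC content and differed in their motifs. The Klf3 promoter was 78.4% G or C and carried 4 GC boxes and 5 CACCC boxes, the elements that KLF and SP proteins themselves bind. Its summit lay between the GC boxes at -187 to -181 and -172 to -166, in bases relative to the start. The Klf11 promoter, 76.8% G or C, held 3 GC boxes, 2 CCAAT boxes and 1 E-box, and no CACCC box. The Klf6 promoter was the least GC-rich of the promoters with a summit, at 64.8%, and had 4 CCAAT boxes and 1 E-box but neither a GC box nor a CACCC box. The Klf2 promoter had no summit, yet was 71.2% G or C with 2 GC boxes and 1 CACCC box.

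The 8 KLF promoters ran from 59.2 to 78.4% G or C with a median of 71.4%, against a median of 55.6% (interquartile range 47.2 to 64.0) over all coding promoters. The 338 promoters of any coding gene with a KMT2D summit in that window had a median of 65.6%. The KLF promoters with a summit (64.8, 76.8 and 78.4%) overlapped those without (59.2 to 74.0%). The number of CpG dinucleotides ran from 13 to 32 in KLF promoters with a median of 23.5, against a median of 10 in all. GC content can alter recovery in sequencing libraries, and its part in the presence of these peaks was not tested.

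A GC box was found in 5 of the 8 KLF promoters, against 31.1% of all promoters, and a CACCC box in 5 of 8, against 54.2%. CCAAT boxes occurred in 4 of 8 (35.4% of all), E-boxes in 3 of 8 (6.63%) and an AP-1 site in 1 of 8, that of Klf9 (6.13%). The E-boxes were those of Klf4, Klf6 and Klf11. Klf6 and Klf11 had a summit in the promoter window, as did Klf3 without an E-box. Klf4 had none there, its summit lying 404 bp before the start. No KLF promoter held a TATAAA match (11.6% of all), the cyclic AMP element (1.92%) or a CArG box (1.39%). No match in these 8 promoters lay wholly inside a match to another motif, but matches overlapped or touched where their edges shared bases, as in Klf3, Klf4, Klf9 and Klf13. Each match is a run of letters, with no binding by any factor measured.

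**Figure D1:**
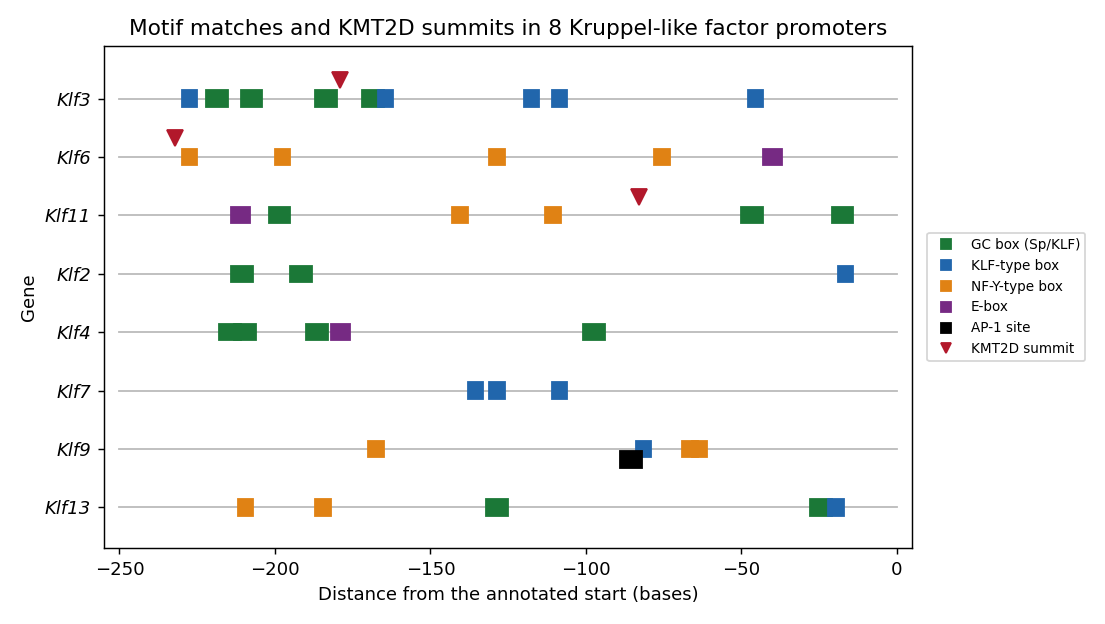
Positions of motif matches (coloured boxes) and KMT2D summits (red triangles) along the 250 bases before the annotated start of 8 KLF genes, with distance from the start in bases on the horizontal axis; GC boxes are green, CACCC boxes blue, CCAAT boxes orange, E-boxes purple and the AP-1 site black. The 3 genes with a summit in this window are at the top, and GC boxes appear both in genes with a summit (Klf3, Klf11) and in genes without one there (Klf2, Klf4, Klf13).

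Of the 10 KLF genes, 6 had a summit inside or within 50 kb, where 24.9% of all protein-coding genes did. Because the members were listed with these peaks in view, nothing is read from that difference. The same 6 genes had a summit within 2 kb of a gene end, where 5.08% of all genes did. At least 2 summits lay in the window of 4 genes (9.22% of all), and at least 3 in that of 3 genes (3.55%). Klf3 had 4, as did or exceeded 1.43% of all genes. In 13 of the 14 cases the KLF gene was the nearest protein-coding gene to the summit. All 6 genes were nearest to a summit of their own, where 10.6% of coding genes were. Among the stronger peaks, those whose −log10 q reached the list's median of 8.26, 4 KLF genes had a summit within 50 kb (13.6% of all genes) and 2 within 2 kb of an end (1.72%). Above the 75th percentile of fold these were 2 genes (7.48%) and 1 gene (0.657%), Klf3 and Klf10 for the wide window and Klf10 for the narrow one.

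The peaks had ordinary folds as a group and a wide range. Fold here is the authors' value from their peak caller, the ChIP pileup over a background estimated from the input, both at the summit. The median fold was 4.28 over the 14 peaks (range 2.49 to 10.7), against 4.45 over all 3738 peaks (interquartile range 3.50 to 5.75). The fragments behind each value were recovered from the deposited fold and p-value. They ran from 13 to 169 ChIP fragments with a median of 36.5, over backgrounds of 2.19 to 21.6 with a median of 6.62. Over all peaks the medians were 31 ChIP fragments and a background of 6.05. Of the 14 peaks, 6 lay above the median fold of the list and 4 at or above its 75th percentile of 5.75.

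**Figure D2:**
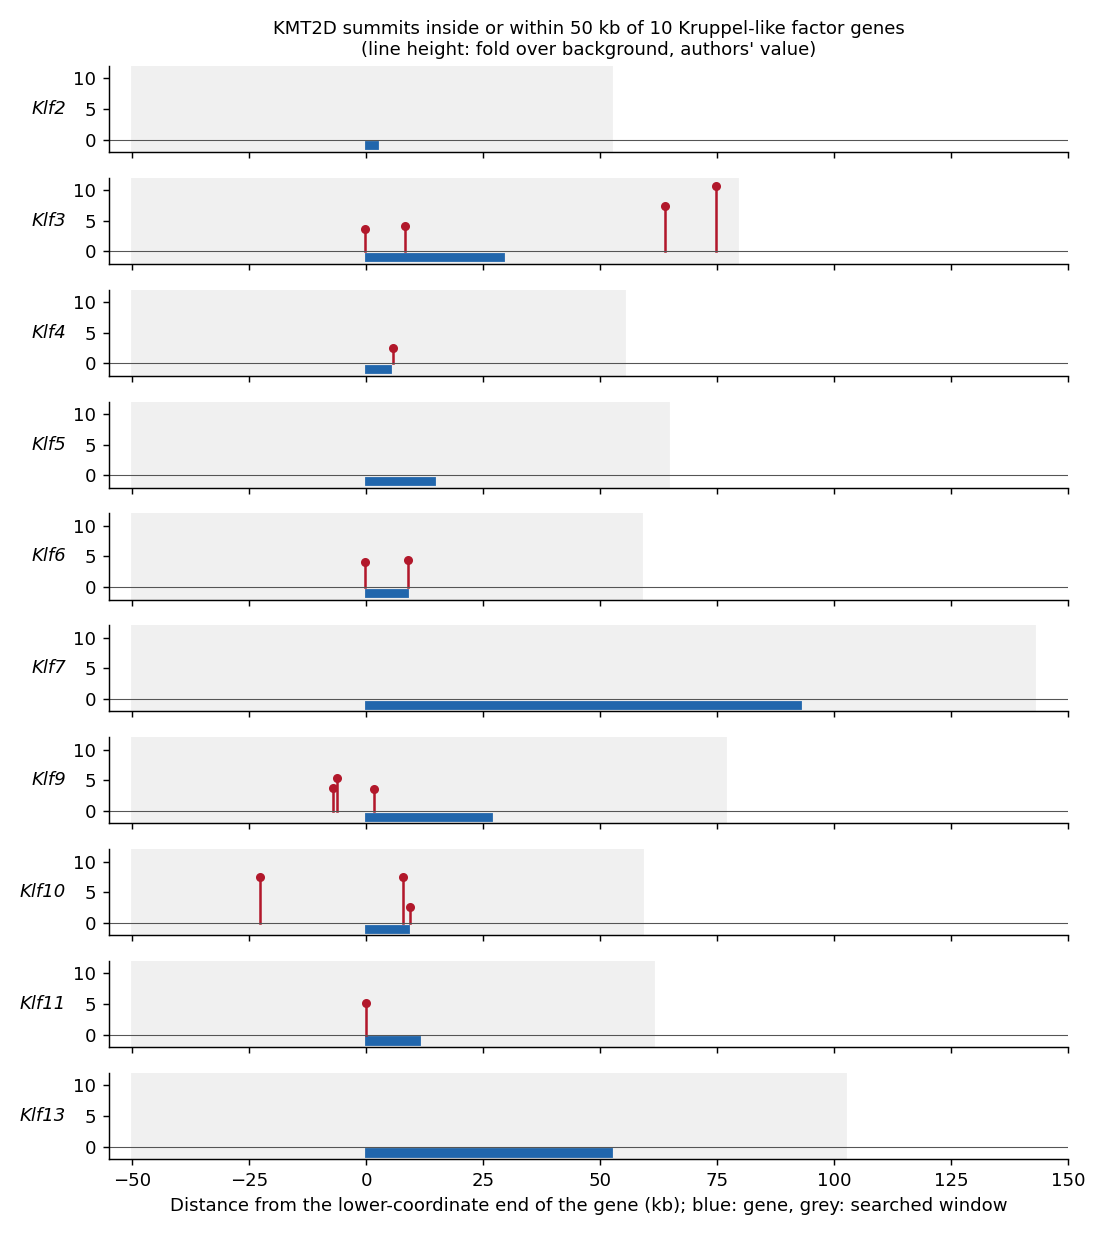
Position and fold of every KMT2D summit inside or within 50 kb of the 10 KLF genes, with distance in kb from the lower-coordinate end of each gene on the horizontal axis and fold over background as the height of each red line. Blue bars are genes and grey areas the searched windows; the highest line stands 45346 bp beyond Klf3, and the windows of Klf2, Klf5, Klf7 and Klf13 are empty.

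The peaks over 2 kb outside Klf3 and Klf10 had higher folds than any within 500 bp of a gene end. The 6 peaks within 500 bp of a gene end, at Klf3, Klf4, Klf6, Klf10 and Klf11, had folds from 2.49 to 5.14 with a median of 3.91. The 3 further inside a gene, at Klf3, Klf9 and Klf10, had folds of 4.18, 3.61 and 7.52. The 5 outside the genes and over 2 kb away had folds from 3.72 to 10.7 with a median of 7.31. These were 7.31 and 10.7 at Klf3, 7.55 at Klf10, and 3.72 and 5.34 at Klf9. The same split over all peaks of the list is not given here. The outside and gene-end groups overlapped, and peaks of the same gene share their locus.

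Klf3 encodes a repressor of the family that acts through CtBP, and it had the highest fold of the set. The gene spans chr5:64803521-64832901. Its first peak (chr5:64803104-64803611) lay over the start, with 36 ChIP fragments over a background of 9.13, a fold of 3.65 (95% Poisson interval 2.59 to 5.02). That summit was also inside Gm38457, a predicted coding gene that overlaps the start of Klf3, and it is the summit of the 14 that was nearer to another coding gene. The second (chr5:64811647-64811871), 8202 bp past the start, had 27 fragments over 5.71 and a fold of 4.18 (2.80 to 6.01).

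Both distal Klf3 peaks had higher folds than those at the gene. At 34429 bp beyond its finish, the peak at chr5:64867141-64867522 had 57 ChIP fragments over a background of 6.93, a fold of 7.31 (5.57 to 9.43). At 45346 bp, the peak at chr5:64877968-64878608 had 79 over 6.49, a fold of 10.7 (8.49 to 13.3), rank 59 in the list. The intervals of both lay above that of the peak at the start, the nearer one overlapped that of the peak inside the gene, and their summits were 10917 bp apart. The farther summit lay 1298 bp from Gm31889, a long non-coding RNA (lncRNA) gene. It was almost as close to Tlr1, a Toll-like receptor gene 46433 bp away, as to Klf3, so a peak so far out is tied to Klf3 by distance alone.

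Klf4, known as a reprogramming factor of pluripotent cells, had the lowest fold of the 14. The gene lies at chr4:55527137-55532475 on the minus strand, and its peak (chr4:55532830-55533048) had its summit 404 bp before the start. It held 37 ChIP fragments over a background of 14.3, a fold of 2.49 (1.77 to 3.41). The pileup was about the median of the set while the background was exceeded only at Klf10 (21.6 for 2 peaks). The summit also lay within the lncRNA gene Gm12506.

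Klf6, a gene induced by injury and growth signals, had a peak at each of its ends. The gene spans chr13:5861489-5870393. The peak before the start (chr13:5861145-5861359) had 23 ChIP fragments over a background of 4.76, a fold of 4.17 (2.71 to 6.17). The peak at the finish (chr13:5870432-5870651), with its summit 80 bp past the annotated end, had 13 over 2.19, a fold of 4.39 (2.48 to 7.28). The folds differed by less than counting error. The second peak had the fewest fragments of the set. Its background was the lowest value in the whole list, one that many other peaks shared.

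Klf9 encodes a factor induced by glucocorticoid and thyroid hormone that is expressed in hippocampal neurons. The gene spans chr19:23141226-23168129. Its peaks lay on both sides of the start without covering it. The strongest (chr19:23134863-23136249), 6183 bp before the start, had 39 ChIP fragments over a background of 6.49, a fold of 5.34 (3.84 to 7.26). At 1387 bp it was the widest of the 14 and ranked 9 by width among all 3738, with its summit 180 bp from its lower edge. A narrower peak (chr19:23133953-23134243), 924 bp further out, had 22 over 5.19, a fold of 3.72 (2.39 to 5.54). Both lay at the lncRNA gene 2410080I02Rik, the first inside it and the second 379 bp away. The third peak (chr19:23142649-23142885), 1592 bp inside Klf9, had 27 over 6.76, a fold of 3.61 (2.42 to 5.19). The 3 intervals overlapped.

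Klf10, first described as a TGF-beta inducible early gene, had the largest pileups. The gene spans chr15:38291464-38300711. The peak inside it (chr15:38298893-38299891), 1458 bp from the upper end, held 169 ChIP fragments over a background of 21.6, a fold of 7.52 (6.43 to 8.73). Next to it, 1511 bp away and 53 bp outside the same end, a peak (chr15:38300658-38301213) held 58 over the same background of 21.6, a fold of 2.61 (1.99 to 3.36). With equal backgrounds these neighbours differed in ChIP signal by more than counting error. Both lay within the lncRNA gene Gm35248, and strand was not used in the counting.

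The remaining Klf10 peak (chr15:38268608-38268972), 22641 bp below the gene, had 98 ChIP fragments over 12.1, a fold of 7.55 (6.15 to 9.19). Backgrounds above the median of the list were not peculiar to Klf10. The 95 peaks at 30 to 65 Mb of chromosome 15, a range taken from earlier results of these data, had a median background of 10.3, against 6.49 for the 162 elsewhere on that chromosome and 6.05 for the peaks of all others. The highest background in that range was 22.9, close to the 21.6 of the peaks in and next to Klf10. The median fold of the 95 peaks was 4.10, against 4.49 and 4.47. Fold is a ratio to this background, and the part of the raised background in the Klf10 peaks was not tested. Without Klf10 the other 11 peaks had a median fold of 4.18.

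Klf11, a close relative of Klf10 that also binds Sin3A, had 1 peak. The gene spans chr12:24651371-24662782, and the peak at chr12:24651039-24651347 ended before the start, with its summit at 83 bp. It held 33 ChIP fragments over a background of 5.62, a fold of 5.14 (3.58 to 7.15), the highest among the 6 peaks within 500 bp of an end. The window also held 3 other coding genes, of which Cys1 was the nearest at 14545 bp from the summit.

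**Figure D3:**
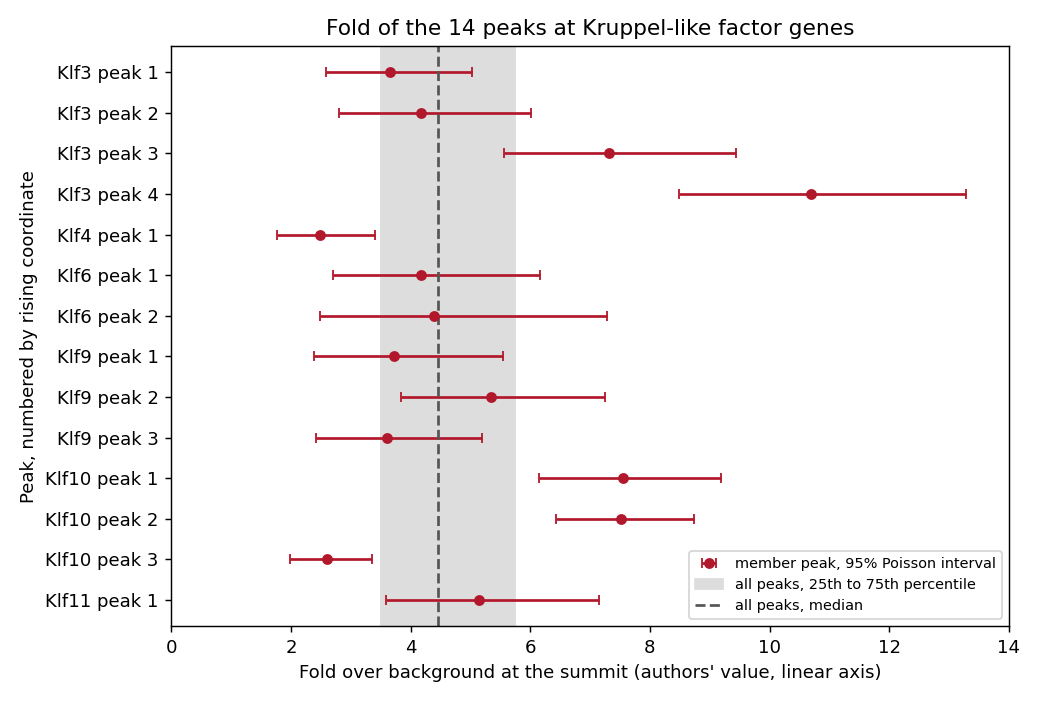
Fold over background of the 14 peaks at KLF genes (red points, horizontal axis, linear), with 95% Poisson intervals. The intervals cover counting error of the ChIP fragments only, and peaks are numbered by rising coordinate within each gene. The grey band is the interquartile range of all 3738 peaks (3.50 to 5.75) and the dashed line their median (4.45); the intervals of Klf3 peak 4 and of Klf10 peaks 1 and 2 lie wholly above the band, and those of Klf4 and Klf10 peak 3 wholly below it.

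**Figure D4:**
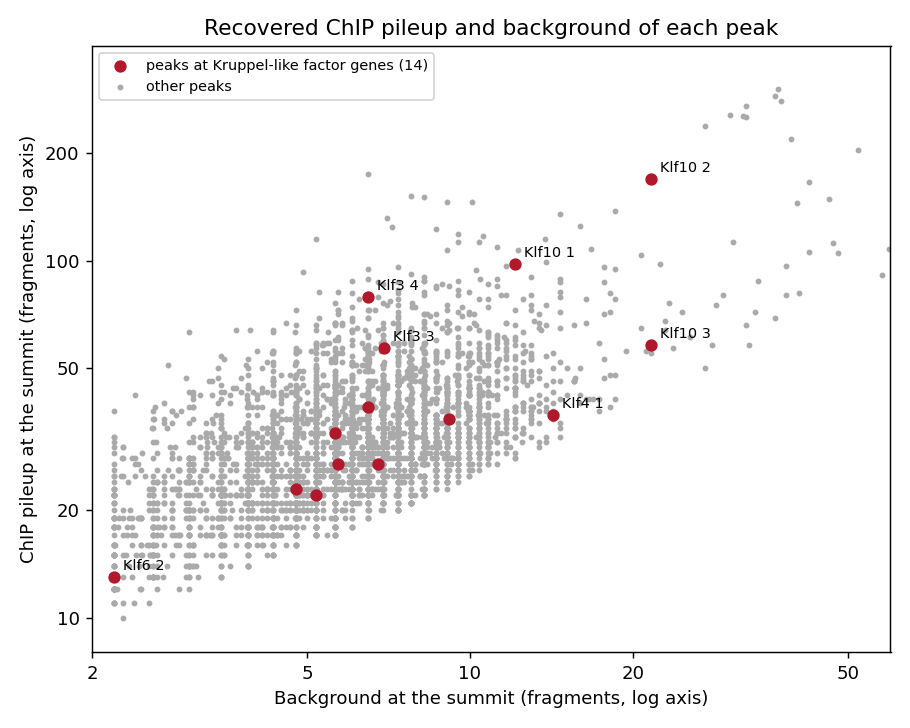
ChIP pileup against background, both in fragments on log axes, for the 14 KLF peaks (red) and the other peaks of the list (grey), of which 89 lie beyond the limits of 60 background or 400 ChIP fragments and are not drawn. Klf10 peaks 2 and 3 share a background of 21.6 while holding 169 and 58 ChIP fragments, and the second Klf6 peak stands at the lower left with 13 over 2.19.

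The 4 genes without a summit in the window differed in how empty their surroundings were. Klf7, an activator linked to axon growth, lies at chr1:64029448-64122345, and a strong peak lay 103968 bp above it (chr1:64226086-64226515). That peak held 68 ChIP fragments over a background of 6.05, a fold of 9.78 (7.63 to 12.4), rank 110 in the list, and Klf7 was its nearest coding gene. The nearest summit below the gene was 252331 bp away. Klf13, first studied as a late activator in T cells, lies at chr7:63886351-63938915. Its nearest summit was 288138 bp away inside Trpm1, a channel gene, with a fold of 5.38.

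Klf2, which is induced by blood flow in endothelial cells, lies at chr8:72319062-72321654, and its nearest summit was 738603 bp away. It lay inside Slc27a1, a fatty acid transporter gene, with a fold of 3.98. Klf5, a gene of proliferating epithelia, lies at chr14:99298691-99313412, and its flanking summits were 19817676 and 21724069 bp away. That stretch of 41.6 Mb, with 58 coding genes, was the longest between neighbouring summits on any chromosome. The next longest was 30.4 Mb on X. The absence of a summit at Klf5 is that of the whole stretch in the list as analysed here. These data do not tell an absence of KMT2D at Klf5 from a lack of listed peaks over the region for another reason, which was not tested. A gene without a listed peak may still carry signal below the threshold of the peak caller, and no coverage track was used here.

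The 50 kb limit left further peaks just outside. The farthest counted summit was the one 45346 bp beyond Klf3, with a fold of 10.7. The nearest uncounted summits were 57686 bp from Klf6 (fold 5.76), 72305 bp from Klf11 (4.20, nearer to Rrm2, a ribonucleotide reductase gene) and 90929 bp from Klf10 (3.84). Beyond 50 kb a KLF member was the nearest coding gene to 6 summits for Klf4, 4 for Klf6, 1 for Klf7 and 1 for Klf10. The Klf4 peaks lay 119034 to 203194 bp above the gene, the side on which it starts, and their folds ran from 3.05 to 5.54. All 6 folds exceeded the 2.49 at its promoter, and the intervals of 2, at 175561 and 203194 bp, lay above that of the promoter peak. ChIP fragments at these Klf4 peaks ran from 20 to 42, on both sides of the 37 at the promoter. Their backgrounds ran from 4.055 to 10.4, below the 14.3 there. The peak at 203194 bp held 27 ChIP fragments, fewer than the promoter peak. The Klf6 peaks lay at 57686, 136977, 189699 and 515522 bp, with folds of 5.76, 6.78, 5.09 and 6.89, each above both peaks at the gene in value, though with overlapping intervals.

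**Figure D5:**
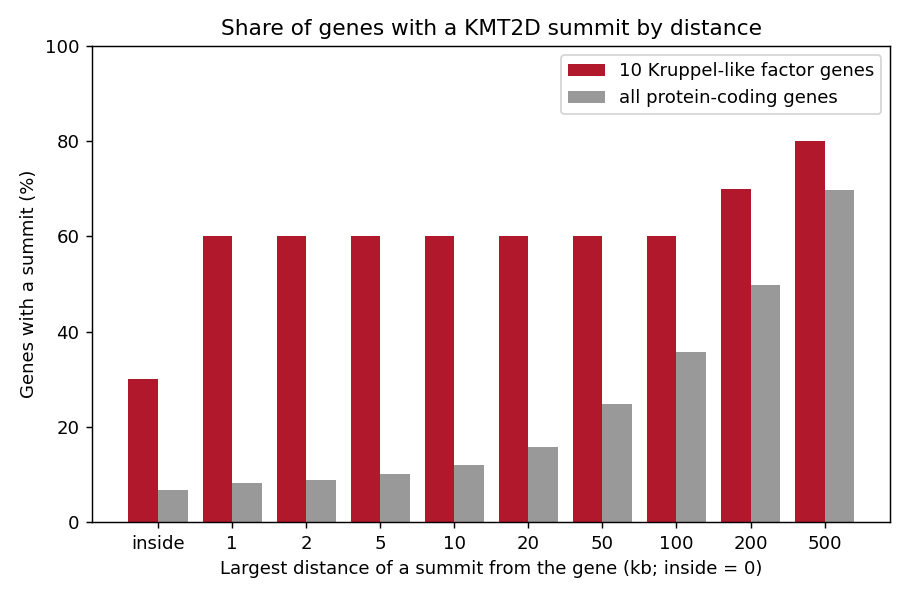
Share of genes with a KMT2D summit inside the gene or within each distance, in percent, for the 10 KLF genes (red) and all 21774 protein-coding genes (grey), as bars from 0. The KLF bars stand at 6 of 10 from 1 kb to 100 kb while that of all genes runs from 8.29 to 35.8%, and at 500 kb the values are 8 of 10 and 69.7%.

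The count of KLF genes was the same at every distance from 1 to 100 kb. It was 3 inside the gene, where 6.72% of all genes had a summit, and 6 from 1 kb (8.29%) to 100 kb (35.8%). Klf7 entered by 200 kb, making 7 of 10 where 49.9% of all genes had one, and Klf13 by 500 kb, making 8 of 10 and 69.7%. Widening the window thus brought the shares together.

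Related genes outside these 10 had summits nearby at shares near or below the 24.9% of all coding genes. Among 7 other KLF genes, Klf1, Klf8, Klf12, Klf14, Klf15, Klf16 and Klf17, Klf15, a metabolic regulator, was the only one with a summit within 50 kb (14.3%). It lay 16632 bp from the gene with a fold of 4.43 (3.14 to 6.09). Klf18 was not in the gene table. Of 9 SP genes, which share the zinc fingers of the family, 2 had a summit (22.2%), with 4 at Sp3 and 2 at Sp1, and Sp3 alone had one within 2 kb of an end. Their highest folds were 4.73 for Sp3 and 4.24 for Sp1, whose peak lay inside Prr13. As the members were picked with peaks in view, the contrast with the remaining KLF genes is not evidence of a difference.

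Genes acting with KLF proteins were listed by role. Of 15 corepressor and coactivator genes 7 had a summit within 50 kb (46.7%, against 24.9% of all genes), and 3 of the 15 within 2 kb of an end (against 5.08% of all). Among them, highest folds were 7.05 for Wdr5, a subunit of the KMT2 complexes (in its neighbour Brd3), 5.23 for Ctbp1 and 3.63 for Hdac2. Of 6 ubiquitin ligase genes 2 had a summit (33.3%, against 24.9% of all genes), and neither within 2 kb of an end. These were Smurf1 (7.81, inside the gene) and Smurf2 (2.90, 31421 bp away inside Ddx5 and Cep95). Of 17 genes for inputs to KLF transcription 10 had a summit (58.8%, against 24.9% of all genes). The highest folds were near Tgfbr2, a TGF-beta receptor gene (10.3), Mrtfb (7.88), Tgfb1 (7.82, inside Ccdc97) and Mef2c (7.21, inside the gene). Within 2 kb of an end, 2 of the 17 had a summit (11.8%, against 5.08% of all).

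The AP-1 and C/EBP genes, other families of inducible transcription factors, were set beside the KLF members. Of 11 AP-1 genes 8 had a summit within 50 kb (72.7%) but 3 within 2 kb of an end (27.3%), where the KLF members had 6 of 10 for both and all coding genes 24.9 and 5.08%. The highest AP-1 folds were at Junb (6.39), Fosb (5.76, nearer to Ercc1), Batf2 (5.49, inside Arl2) and Fos (5.16). Of 7 C/EBP genes, Ddit3 (8.51, inside Mbd6) and Cebpb (4.45) had a summit (28.6%, near the share of all genes), each also with one within 2 kb of an end. Median folds were 4.28 over the KLF peaks, 3.59 over 17 AP-1 peaks and 4.45 over 5 C/EBP peaks. No test was made between these lists, since their members were chosen with peaks known.

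A peak list measures no RNA, so the hippocampal label of the line could not be checked by expression. Of 12 neuron markers 0 had a summit within 50 kb, where 24.9% of all genes did. These 12 were chosen genes and not a random draw, so the count of 0 describes them alone. Of 5 neural progenitor markers 3 did (Vim, Nes and Sox9, highest folds 7.33, 4.82 and 3.07). Of 8 fibroblast-like or mesenchymal markers 4 did (Col1a2, Pdgfrb, Col1a1 and Tagln, highest folds 10.1, 6.72, 4.82 and 3.415). Among those 4 mesenchymal peaks only that of Col1a2 had its own gene nearest. Within 2 kb of an end, 2 of the progenitor markers had a summit and 0 of the mesenchymal markers. Astrocyte and microglia markers had 1 of 4 each, Aldh1l1 through the Klf15 peak and Cx3cr1.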

How the data were processed

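The members, gene lists and windows were chosen with earlier results of these data known. KMT2D ChIP and input libraries of wild-type HT22 cells, 1 each, were analysed through 1 peak list. Per the submitters' processing notes the authors used Bowtie2, Picard and MACS2 with the build mm10. Their versions and options were not stated in these sources. The deposited list gives each peak's interval, summit, fold or ratio over background, −log10 p-value and q-value, and a score (the −log10 q times 10, as a whole number), which was not used. The lowest deposited −log10 q was 1.32.

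From these values a whole ChIP pileup n and a background b were solved, with fold (n + 1)/(b + 1) and a Poisson tail p-value, within 0.001 of the deposited −log10 p for 3694 of 3738 peaks (98.8%) and all 14 KLF peaks. Of 1000 peaks simulated with these same formulas, 100.0% were recovered. That checks the solving step alone, and not whether the deposited values follow the formulas. Intervals are exact 95% Poisson intervals of n with b held fixed. Total reads per library are not in the list.

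Genes were taken from RefSeq GRCm38.p6, 49595 of 49997 on main chromosomes, and 3706 peaks lay there. Distances run from the summit, with positions counted from 1. All members and all their peaks are named, and of other lists the 4 genes of highest fold, with each list's remaining genes named only in counts of few; some genes that this rule takes, and results that need them, are omitted. Protein sequences were not used here, so the planned protein comparison was not run. Python 3.11.15, pandas 2.3.3, numpy 2.4.6 and scipy 1.17.1 were used. Alternatives were stricter peak thresholds, other windows, a limit on background, whole peak intervals and annotated starts.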

Additional observations from a re-analysis of the deposited data

How the results depend on the processing

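Stricter peak lists lowered every count. With only peaks whose −log10 q reached the list median (8.26), 4 KLF genes kept a summit within 50 kb, 2 had one within 2 kb of an end, 4 had their own gene nearest, and 6 peaks remained with a median fold of 7.41. With only peaks whose fold reached the 75th percentile (5.75), the values were 2 genes within 50 kb, 1 within 2 kb of an end, 2 with their own gene nearest, and 4 peaks with a median fold of 7.54. These medians rise by construction, since low folds are removed. The gene count within 50 kb was 6 with windows of 20 and 100 kb, with whole peak intervals and without peaks of background over 20 fragments, while the peaks numbered 11, 17, 14 and 12. The count within 2 kb of an end was 5 with a 1 kb window, with annotated starts alone (which leaves out Klf10, with no start in the table) and without high backgrounds, and 6 with a 5 kb window. No paired analysis was possible because each group had 1 library. Counting error was widest relative to the fold at the Klf6 peak of 13 fragments (4.39, interval 2.48 to 7.28).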

Other observations

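Klf14, a KLF gene outside the 10, had no summit within 50 kb but was the nearest coding gene to 4 summits between 103068 and 141570 bp away. Their folds were 5.32, 9.21, 4.54 and 3.06 in order of distance. The second (chr6:31081939-31082324) held 60 ChIP fragments over a background of 5.62, with a 95% Poisson interval of 7.07 to 11.8 on the fold, and ranked 155 in the list.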
